A study of Mus musculus with 8 samples.

Results

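The expression of 36 macrophage genes was examined in the visceral epididymal fat pad. The donors were male mice on a high-calorie Western diet, kept on it 8 weeks, with a 6 h fast at the end. The genes were taken by name from a table of 28295 genes and all 36 were found in it. The KO group (4 libraries, KO1 to KO4) carried Cul3 alleles flanked by loxP sites together with a Cre recombinase under the AdipoQ promoter, which is active in adipocytes and not in macrophages. The WT group (4 libraries, WT1 to WT4) carried the floxed Cul3 alleles without the Cre, so that both groups share the floxed alleles, the diet and the fast. Whole fat was sequenced as poly(A) RNA, and values are FPKM, read fragments scaled to gene length and to library depth. Cul3, the floxed gene, was not lower in the KO group, at 10.6, 11.2, 13.2 and 12.99 FPKM in KO1 to KO4, against 11.4, 9.66, 12.4 and 11.5 FPKM in WT1 to WT4 (exact two-sided permutation test, p = 0.429), so the group is called KO-labelled and every direction rests on the labels. A value per gene does not separate deleted exons from the rest of a transcript, and cells of the fat other than adipocytes would keep an intact Cul3.

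Macrophages are the most abundant immune cells of obese fat. Resident macrophages sit along vessels and carry scavenging receptors such as LYVE1, TIM4, CD163 and the mannose receptor CD206. Monocytes recruited from blood, which in the mouse carry Ly6C, add to them during weight gain, and around dying adipocytes many become lipid-associated macrophages, which depend on the lipid receptor TREM2 and express CD9, GPNMB, osteopontin and galectin-3. Of the genes examined, 17 are general to macrophages or myeloid cells, 5 are resident-type, 5 are lipid-associated, and 9 mark monocytes, CD11c-positive cells, lectins or lysosomes.

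In the KO-labelled fat, the activating Fc receptor genes Fcgr1 and Fcgr4, Cd14, Aif1, Mertk and the monocyte genes Ly6c2 and Plac8 were higher, the resistin-like gene Retnla was lower, and no lipid-associated gene was called. Of the 36 genes, 12 rose and 1 fell at a limma adjusted p under 0.05, beside 11.7% of all 14400 tested genes called higher, 18.6% called lower and 30.4% called either way. The median log2 fold change of the 36 genes was 0.66, and that of all tested genes was -0.02. All 36 genes passed the filter of a mean of 0.5 FPKM over the 8 libraries. In 7 genes every KO-labelled library was above every WT library, as in 12.1% of all tested genes, and in Retnla every KO-labelled library was below, as in 19.1%. Those 7 genes were Fcgr1, Fcgr4, Aif1, Mertk, Cd14, Ly6c2 and Plac8, and each kept its call when any 1 library was left out, as did Retnla. In bulk tissue, fewer cells of a type and less RNA per cell cannot be told apart.

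The listed genes held 15.2 to 18.7 M recovered reads (M, reads in units of 1000000) in the KO-labelled libraries and 17.7 to 19.7 M in WT. These were 62.6 to 66.1% in the KO-labelled libraries and 74.1 to 78.7% in WT of the reads behind the deposited scaling. Scaling each library to a sum of 1000000 moved the median of all tested genes to 0.24 and gave 29.3% called higher and 8.26% lower. With that scaling 18 of the 36 genes were called higher and 1 lower, the added ones being Adgre1, Csf1r, Fcgr3, Fcer1g, Mpeg1 and Cd163. Values in brackets after a gene are the log2 fold change of FPKM + 0.5 with its standard error and the limma adjusted p over all tested genes, with 4 libraries in each group.

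One library in each group stood apart. Within WT, WT4 had the highest value in 29 of the 36 genes, and within the KO-labelled group KO4 had the lowest in 33 of 36. The geometric mean of the 17 general genes was 25.6, 26.0, 20.9 and 12.95 FPKM in KO1 to KO4, against 7.89, 6.61, 7.04 and 18.0 FPKM in WT1 to WT4. WT4 thus lay above KO4 and the other 3 WT libraries lay below all KO-labelled libraries. Without WT4, 24 of the 36 genes were called higher, beside 13.4% of all tested genes, and 1 was called lower, beside 19.4%. Without WT1, the count of genes called higher was 7. The 7 genes whose groups did not overlap were called with and without either library.

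The activating IgG receptor genes Fcgr1 and Fcgr4 had the largest log2 fold changes of FPKM + 0.5 of the 36. The added 0.5 lowers the change of low genes. As a ratio of mean FPKM, KO-labelled over WT, Ly6c2 was the largest at 5.67, against 5.22 for Fcgr4 and 5.07 for Fcgr1. Fcgr1 (ENSMUSG00000015947, chromosome 3, 96282909 to 96293969) encodes CD64, the high-affinity receptor, and measured 11.03, 15.5, 10.5 and 8.24 FPKM in KO1 to KO4, against 1.67, 1.82, 1.399 and 4.04 FPKM in WT1 to WT4. Every KO-labelled library was above every WT library, and the means were 11.3 ± 3.04 FPKM in the KO-labelled group and 2.23 ± 1.22 FPKM in WT (SD, n = 4 each; log2 fold change 2.17 ± 0.28, adjusted p = 0.000961). Fcgr4 (chromosome 1, 171018920 to 171029761), a receptor for IgG2 antibodies in the mouse, measured 11.9, 11.8, 9.43 and 6.27 FPKM in KO1 to KO4, against 1.75, 0.931, 1.04 and 3.82 FPKM in WT1 to WT4. The groups did not overlap here either (log2 fold change 2.23 ± 0.35, adjusted p = 0.00241). Fcgr2b, the inhibitory receptor of the family, ranged over 9.31 to 21.6 FPKM in the KO-labelled libraries and 5.48 to 10.4 FPKM in WT and was called (1.13 ± 0.28, adjusted p = 0.017), but KO4 lay below WT4 and the call was lost without WT1 (adjusted p = 0.0509). Fcgr3, an activating receptor that pairs with the FcR gamma chain, ranged over 20.3 to 54.3 FPKM in the KO-labelled libraries and 13.7 to 38.4 FPKM in WT with no call (0.87 ± 0.37, adjusted p = 0.11). Fcgr2b and Fcgr3 are near-identical in their extracellular exons, so reads between them are uncertain. The ratio of Fcgr1 to Fcgr2b within a library was 0.510, 0.768, 0.629 and 0.885 in KO1 to KO4, against 0.304, 0.300, 0.190 and 0.387 in WT1 to WT4. WT4 lay nearer to the other WT libraries in this balance of activating to inhibitory receptor, although its levels of both were the highest of WT.

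The sequences upstream of Fcgr1 and Fcgr4, whose groups did not overlap, and of Trem2 and Gpnmb, whose groups did, are shown for their matches to GAGGAA, the core of the sites of PU.1, a transcription factor that myeloid cells depend on. The letters were searched on both strands in the 250 bases before each RefSeq start (GRCm38.p6), and capitals mark a match, which reads TTCCTC on the printed strand. The Fcgr1 stretch is chr3:96293970-96294219 on the minus strand, that of Fcgr4 is chr1:171018676-171018925 on the plus strand, that of Trem2 is chr17:48346151-48346400 on the plus strand and that of Gpnmb is chr6:49036268-49036517 on the plus strand.
Fcgr1: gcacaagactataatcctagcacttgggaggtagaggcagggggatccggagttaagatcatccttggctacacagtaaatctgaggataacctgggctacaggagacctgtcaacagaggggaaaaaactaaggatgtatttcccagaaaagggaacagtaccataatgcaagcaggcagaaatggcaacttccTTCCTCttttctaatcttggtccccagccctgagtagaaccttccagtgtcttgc
Fcgr4: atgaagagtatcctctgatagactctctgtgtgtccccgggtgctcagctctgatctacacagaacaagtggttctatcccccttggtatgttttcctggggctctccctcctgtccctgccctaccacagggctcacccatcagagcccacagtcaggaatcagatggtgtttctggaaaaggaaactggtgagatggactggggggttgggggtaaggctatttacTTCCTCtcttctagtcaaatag
Trem2: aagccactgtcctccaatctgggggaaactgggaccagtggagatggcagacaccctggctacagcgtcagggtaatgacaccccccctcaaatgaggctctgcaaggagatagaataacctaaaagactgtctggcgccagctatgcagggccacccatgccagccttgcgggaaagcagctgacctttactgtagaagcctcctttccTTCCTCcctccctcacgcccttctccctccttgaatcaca
Gpnmb: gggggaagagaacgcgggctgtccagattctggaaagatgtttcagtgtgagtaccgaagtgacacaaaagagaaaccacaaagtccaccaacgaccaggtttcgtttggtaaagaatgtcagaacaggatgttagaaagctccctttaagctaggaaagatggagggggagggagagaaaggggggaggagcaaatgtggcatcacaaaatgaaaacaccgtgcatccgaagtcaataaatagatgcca
The match lay close to the start in the stretches of Fcgr1, Fcgr4 and Trem2, and the Gpnmb stretch held none. A match was present in 16 of the 28 genes of the 36 with an entry, counting any of a gene's windows (19 of 35 windows), and in 23.3% of the 32851 promoter windows in the reference. Among the genes called higher, 7 of the 10 with an entry held a match. The letters CACGTG and TTCNNNGAA (N, any base) were searched in the same windows and are not marked. CACGTG was present in 0 of the 28 genes and in 6.02% of the reference windows. TTCNNNGAA was present in 1 of the 28, Fcgr1, and in 7.02% of the reference windows. These are descriptions of letters and not of binding.

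The markers that define macrophages in flow cytometry and histology were higher in KO1 to KO3 than in WT1 to WT3, without a call. Adgre1 (chromosome 17, 57358691 to 57483527), which encodes F4/80, measured 48.1, 54.7, 46.4 and 22.4 FPKM in KO1 to KO4, against 14.6, 11, 13.9 and 46.9 FPKM in WT1 to WT4. KO4 lay above WT1 to WT3, while WT4 lay level with KO1 and KO3 (log2 fold change 1.15 ± 0.46, adjusted p = 0.0879). Csf1r, the receptor for the growth factor CSF1, measured 81.8, 85.4, 62.5 and 36.9 FPKM in KO1 to KO4, against 22.2, 22.6, 26.4 and 58.2 FPKM in WT1 to WT4 (1.08 ± 0.36, adjusted p = 0.0514). Cd68, a lysosomal membrane protein of phagocytes, measured 109.8, 113, 76.1 and 45.7 FPKM in KO1 to KO4, against 49.96, 33.5, 40.7 and 165 FPKM in WT1 to WT4, with the highest value of all 8 libraries in WT4 (0.48 ± 0.50, adjusted p = 0.498). Without WT4, Adgre1, Csf1r and Cd68 were each called higher (adjusted p = 0.00543, 0.00747 and 0.0466), and Adgre1 and Csf1r were also called without KO4. Ranges were 2.88 to 5.68 FPKM in the KO-labelled libraries and 1.95 to 5.48 FPKM in WT for Itgam (CD11b) and 32.5 to 78.8 FPKM in the KO-labelled libraries and 15.4 to 64.3 FPKM in WT for Mpeg1, the pore protein perforin-2, and neither was called. Their log2 fold changes were 0.64 ± 0.30, adjusted p = 0.139 for Itgam and 1.11 ± 0.46, adjusted p = 0.103 for Mpeg1.

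Signalling and scavenging genes of the general set split in the same way. Cd14, the co-receptor for lipopolysaccharide, measured 24.0, 29.0, 26.8 and 17.6 FPKM in KO1 to KO4, against 6.99, 5.84, 7.52 and 16.1 FPKM in WT1 to WT4, and KO4 lay above WT4 (1.46 ± 0.29, adjusted p = 0.00716). Aif1, which encodes the actin-binding protein IBA1, measured 9.52, 9.56, 8.87 and 4.93 FPKM in KO1 to KO4, against 1.92, 2.37, 2.45 and 3.00 FPKM in WT1 to WT4 (1.54 ± 0.21, adjusted p = 0.00114). Mertk, a receptor for apoptotic cells, measured 13.1, 12.3, 10.1 and 9.48 FPKM in KO1 to KO4, against 5.84, 8.24, 6.98 and 7.44 FPKM in WT1 to WT4 (0.62 ± 0.13, adjusted p = 0.00879). In Aif1 and Mertk, WT4 was close to the other WT libraries, unlike in Cd68. Ms4a7, a tetraspan membrane protein, ranged over 3.05 to 6.84 FPKM in the KO-labelled libraries and 0.989 to 4.60 FPKM in WT and was called (1.31 ± 0.39, adjusted p = 0.0349), but the call was lost without any of KO1, KO2, KO3, WT1, WT2 or WT3 (adjusted p up to 0.0881). Tyrobp, the adaptor DAP12 through which TREM2 signals, measured 102, 71.4, 57.8 and 33.4 FPKM in KO1 to KO4, against 42.2, 28.3, 29.1 and 91.5 FPKM in WT1 to WT4 (0.53 ± 0.43, adjusted p = 0.383). WT4 was second only to KO1 in this gene, and Tyrobp was the 1 general gene with no call when WT4 was left out. Fcer1g, the FcR gamma chain, had 42.9 to 86.5 FPKM in the KO-labelled libraries and 23.6 to 64.5 FPKM in WT and missed the threshold (0.98 ± 0.33, adjusted p = 0.0539). Fcer1g and Csf1r were called higher under each of the 4 other scalings, with adjusted p = 0.0236 to 0.046 for Fcer1g and 0.0239 to 0.0438 for Csf1r. Laptm5, a lysosomal protein of blood cells, and Msr1, a scavenger receptor for modified lipoproteins, had no call either (0.70 ± 0.33, adjusted p = 0.142 and 0.66 ± 0.32, adjusted p = 0.153), with 2.22 to 3.70 FPKM in the KO-labelled libraries and 1.12 to 4.16 FPKM in WT for Msr1. All 17 general genes had a positive log2 fold change, and this sign held under each of 4 other scalings. Of these, 7 were called higher, and 16 were without WT4.

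**Figure D1:**
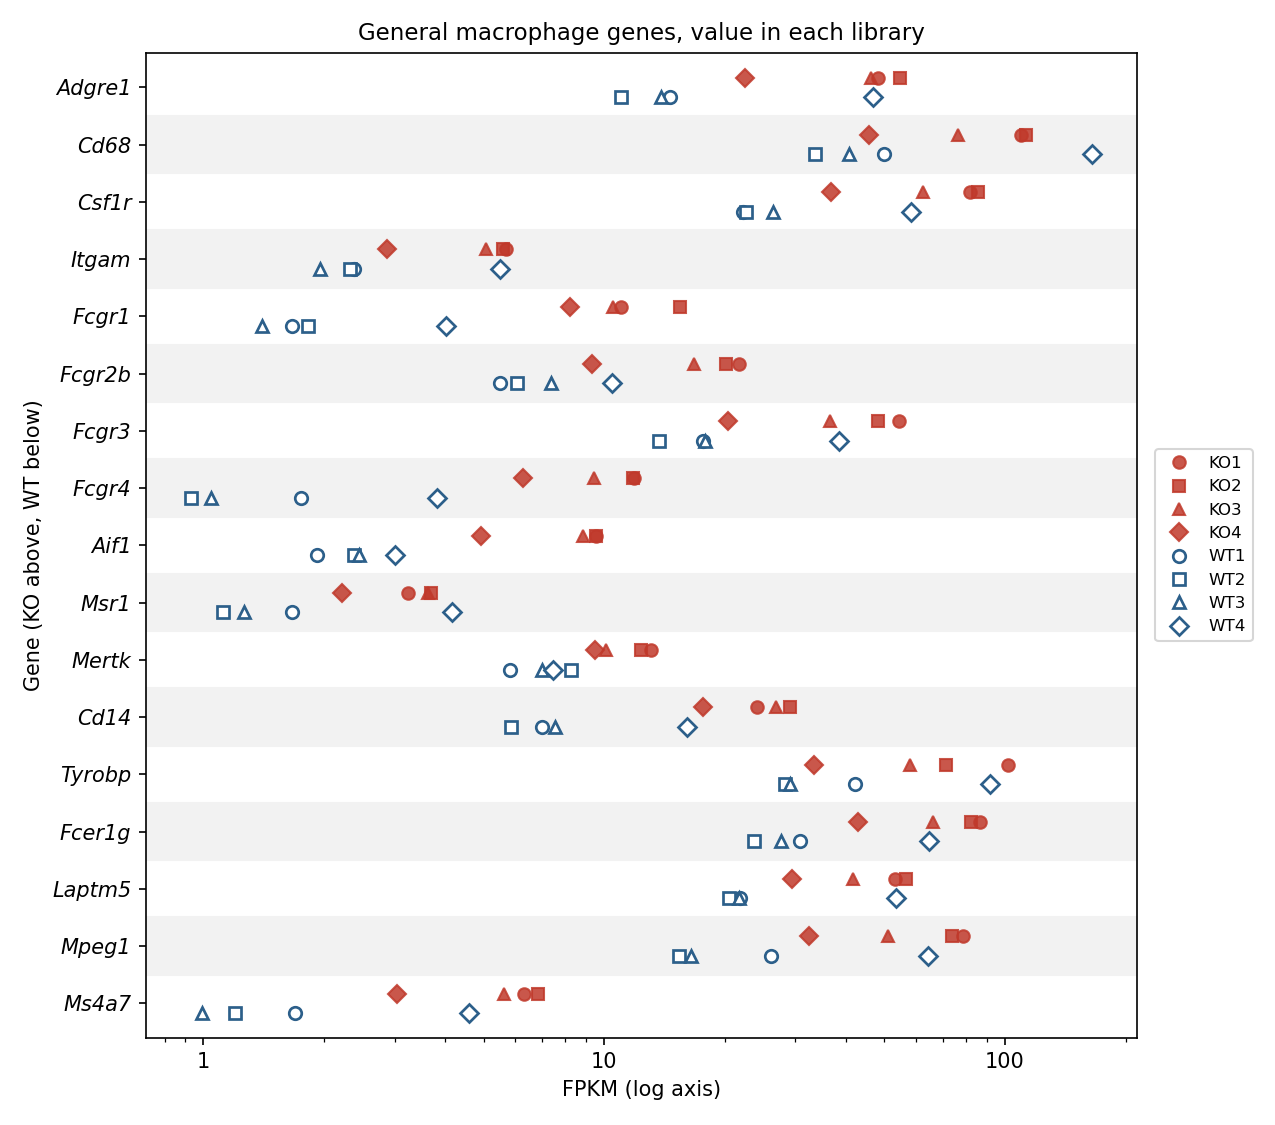
FPKM of the 17 general macrophage genes in each library on a log axis, KO-labelled libraries (red, filled) above WT libraries (blue, open) in each row, with 1 symbol per replicate number. WT1 to WT3 sit at the low end, KO1 to KO3 at the high end, and WT4 (open diamond) lies among or above the KO-labelled libraries except in Fcgr1, Fcgr4, Aif1, Mertk and Cd14.

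Resident-type genes gave 1 call among 5. Mrc1 (chromosome 2, 14229392 to 14332057), the mannose receptor CD206, measured 47.1, 57.1, 44.7 and 26.1 FPKM in KO1 to KO4, against 12.9, 11.5, 17.02 and 32.7 FPKM in WT1 to WT4, so KO4 lay below WT4 and above the rest of WT (1.29 ± 0.34, adjusted p = 0.0229). The call was lost without any of KO1, KO2, KO3, WT1, WT2 or WT3 (adjusted p up to 0.0663). Folr2, the folate receptor beta, measured 9.68, 12.98, 7.56 and 4.62 FPKM in KO1 to KO4, against 3.65, 4.37, 3.92 and 9.47 FPKM in WT1 to WT4 (0.67 ± 0.35, adjusted p = 0.181). Cd163, the receptor for haemoglobin-haptoglobin, measured 16.9, 18.5, 15.7 and 12.7 FPKM in KO1 to KO4, against 7.45, 9.37, 12.7 and 17.2 FPKM in WT1 to WT4 (0.49 ± 0.24, adjusted p = 0.15). Both were called higher when WT4 was left out, with adjusted p = 0.0385 and 0.0271. Lyve1, a hyaluronan receptor, measured 10.7, 11.7, 9.96 and 9.46 FPKM in KO1 to KO4, against 5.47, 11.97, 12.7 and 8.57 FPKM in WT1 to WT4, with both groups around the same level and WT1 the lowest (0.17 ± 0.23, adjusted p = 0.61). Lyve1 is also a lymphatic endothelial gene, and the other markers of those vessels gave no call in 3 tested genes of 6 in the table. Their summed level was 11.1 to 14.4 FPKM in the KO-labelled libraries and 10.7 to 19.0 FPKM in WT, and their part in Lyve1 was not tested. Timd4 (TIM4), a receptor for phosphatidylserine, was the lowest of the resident-type genes at 0.648 to 1.69 FPKM in the KO-labelled libraries and 0.271 to 1.08 FPKM in WT, from as few as 15 recovered reads, with no call (0.51 ± 0.26, adjusted p = 0.161). The median log2 fold change over the 5 genes was 0.51.

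Lipid-associated genes gave no call in either direction. Trem2 (chromosome 17, 48346401 to 48354147) measured 11.3, 9.997, 7.40 and 3.99 FPKM in KO1 to KO4, against 5.64, 3.38, 2.83 and 17.3 FPKM in WT1 to WT4. The highest value was in WT4 and the lowest in WT3, so the WT libraries spanned the KO-labelled ones (0.41 ± 0.53, adjusted p = 0.587). Gpnmb (chromosome 6, 49036546 to 49070929), a glycoprotein of lysosomes in lipid-laden macrophages, measured 12.8, 14.2, 11.3 and 7.30 FPKM in KO1 to KO4, against 25.8, 7.36, 11.2 and 82.4 FPKM in WT1 to WT4 (-0.87 ± 0.65, adjusted p = 0.34). WT4 and WT1 were above every KO-labelled library, and KO1 to KO4 differed among themselves by less than WT did. Spp1 (osteopontin, a secreted phosphoprotein) measured 6.58, 9.88, 8.67 and 3.80 FPKM in KO1 to KO4, against 5.93, 1.67, 1.69 and 15.7 FPKM in WT1 to WT4 (0.64 ± 0.63, adjusted p = 0.472). Lgals3 (galectin-3), which binds galactose-bearing glycans, measured 162, 113, 98.4 and 94.9 FPKM in KO1 to KO4, against 111, 113, 69.0 and 227 FPKM in WT1 to WT4. Cd9, a tetraspanin that many cell types express, measured 22.2, 20.8, 22.4 and 20.1 FPKM in KO1 to KO4, against 19.6, 18.6, 17.8 and 36.3 FPKM in WT1 to WT4. In both, WT4 was the highest of the 8 libraries, while the 4 KO-labelled libraries were above WT1 to WT3 in Cd9 and overlapped them in Lgals3 (log2 fold change -0.05 ± 0.34, adjusted p = 0.926 for Lgals3 and -0.05 ± 0.21, adjusted p = 0.881 for Cd9). Leaving out WT4 gave no call in any of the 5, with adjusted p of 0.0675 for Spp1, 0.0788 for Trem2, 0.0982 for Cd9, 0.431 for Lgals3 and 0.709 for Gpnmb. The standard errors of Trem2, Gpnmb and Spp1 were 0.53 to 0.65 on the log2 scale, against 0.13 to 0.50 for the general genes.

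Lysosomal and CD11c genes followed the same libraries. Atp6v0d2, a V-ATPase subunit that macrophages and osteoclasts induce, measured 11.99, 11.6, 8.67 and 4.19 FPKM in KO1 to KO4, against 10.2, 3.90, 4.64 and 30.8 FPKM in WT1 to WT4 (-0.05 ± 0.61, adjusted p = 0.957). Itgax (chromosome 7, 128129547 to 128150657), which encodes CD11c, the integrin used to mark recruited macrophages and dendritic cells, measured 9.57, 8.57, 6.95 and 4.01 FPKM in KO1 to KO4, against 8.52, 4.77, 4.41 and 18.3 FPKM in WT1 to WT4 (-0.13 ± 0.43, adjusted p = 0.846). WT4 was the highest and KO4 among the lowest libraries in both. Cd63, a tetraspanin of late endosomes found in many cell types, ranged over 39.2 to 45.1 FPKM in the KO-labelled libraries and 28.7 to 49.1 FPKM in WT (0.21 ± 0.15, adjusted p = 0.333), and was called higher without WT4 (adjusted p = 0.0218). Clec7a, the beta-glucan receptor dectin-1, measured 12.9, 14.1, 11.7 and 8.70 FPKM in KO1 to KO4, against 5.87, 3.28, 4.81 and 11.3 FPKM in WT1 to WT4 and passed narrowly (0.96 ± 0.32, adjusted p = 0.0489). That call was lost without any of KO1, KO2, KO3, WT1, WT2 or WT3, with adjusted p up to 0.115.

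Both monocyte genes rose, and WT4 did not stand out in them. Ly6c2 (ENSMUSG00000022584, chromosome 15, 75108158 to 75111970), which encodes the Ly6C antigen of inflammatory monocytes, measured 2.38, 2.65, 1.69 and 1.80 FPKM in KO1 to KO4, against 0.444, 0.32, 0.398 and 0.341 FPKM in WT1 to WT4. Every KO-labelled library was above every WT library, and WT4 was the second lowest of the 8 (log2 fold change 1.57 ± 0.14, adjusted p = 0.000163). These values rest on 21 to 190 recovered reads per library. Ly6c2 has a near-identical neighbour, Ly6c1, an endothelial gene, so reads between them are uncertain. Ly6c1 moved the other way, at 57.3, 47.5, 43.1 and 44.8 FPKM in KO1 to KO4, against 73.7, 69.4, 67.7 and 67.0 FPKM in WT1 to WT4 (-0.53 ± 0.10, adjusted p = 0.0057). Plac8, a small cysteine-rich protein of monocytes and other leukocytes, measured 3.77, 4.56, 4.88 and 2.77 FPKM in KO1 to KO4, against 1.11, 1.07, 1.45 and 0.971 FPKM in WT1 to WT4, with the lowest value of the 8 in WT4 (1.43 ± 0.17, adjusted p = 0.000553). Summed, the pair came to 4.56 to 7.21 FPKM in the KO-labelled libraries and 1.31 to 1.85 FPKM in WT.

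Genes associated with alternative activation parted. Retnla (ENSMUSG00000061100, chromosome 16, 48842551 to 48844461) encodes the secreted resistin-like protein RELM-alpha, also known as FIZZ1, and measured 197, 233, 176 and 160.1 FPKM in KO1 to KO4, against 324, 529, 566 and 487 FPKM in WT1 to WT4. All KO-labelled libraries were below all WT libraries, with means of 192 ± 31.4 FPKM in the KO-labelled group and 477 ± 107 FPKM in WT (SD, n = 4 each; log2 fold change -1.29 ± 0.19, adjusted p = 0.00177). Retnla was the most abundant of the 36 genes in WT, and it stayed called lower under the 4 other scalings, at -1.02 (adjusted p = 0.00511) scaled to a sum of 1000000. WT4 lay within the range of WT1 to WT3 in Retnla, unlike in most general genes. Which cells of the fat expressed Retnla was not tested. Clec10a, the galactose-type lectin MGL1, measured 34.2, 32.0, 26.9 and 16.9 FPKM in KO1 to KO4, against 9.55, 12.6, 7.33 and 24.0 FPKM in WT1 to WT4 (1.10 ± 0.35, adjusted p = 0.0454), a call lost without any of KO1, KO2, KO3, WT1, WT2 or WT3 (adjusted p up to 0.115). Its neighbour and paralog Mgl2, of the same chromosome (chromosome 11, 70130329 to 70137550 against chromosome 11, 70156197 to 70170834), measured 20.4, 17.1, 14.3 and 13.2 FPKM in KO1 to KO4, against 19.8, 19.1, 26.7 and 21.8 FPKM in WT1 to WT4 with no call (-0.43 ± 0.15, adjusted p = 0.0646), and was called lower without KO1 (adjusted p = 0.0251). The ratio of Mgl2 to Clec10a within a library was 0.596, 0.534, 0.530 and 0.784 in KO1 to KO4, against 2.08, 1.51, 3.64 and 0.907 in WT1 to WT4. The groups did not overlap in this ratio. Reads shared between these paralogs could affect both genes. The ratio of Retnla to Mrc1, both used as marks of alternative activation, was 4.18, 4.08, 3.95 and 6.13 in KO1 to KO4, against 25.2, 45.9, 33.3 and 14.9 in WT1 to WT4. Besides these ratios and that of Fcgr1 to Fcgr2b, others were taken. The groups overlapped in Trem2 to Csf1r and in Cd63 to Cd68, and did not in Gpnmb to Csf1r and in Mrc1 to Cd68. No share over other pairs of genes was computed.

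**Figure D2:**
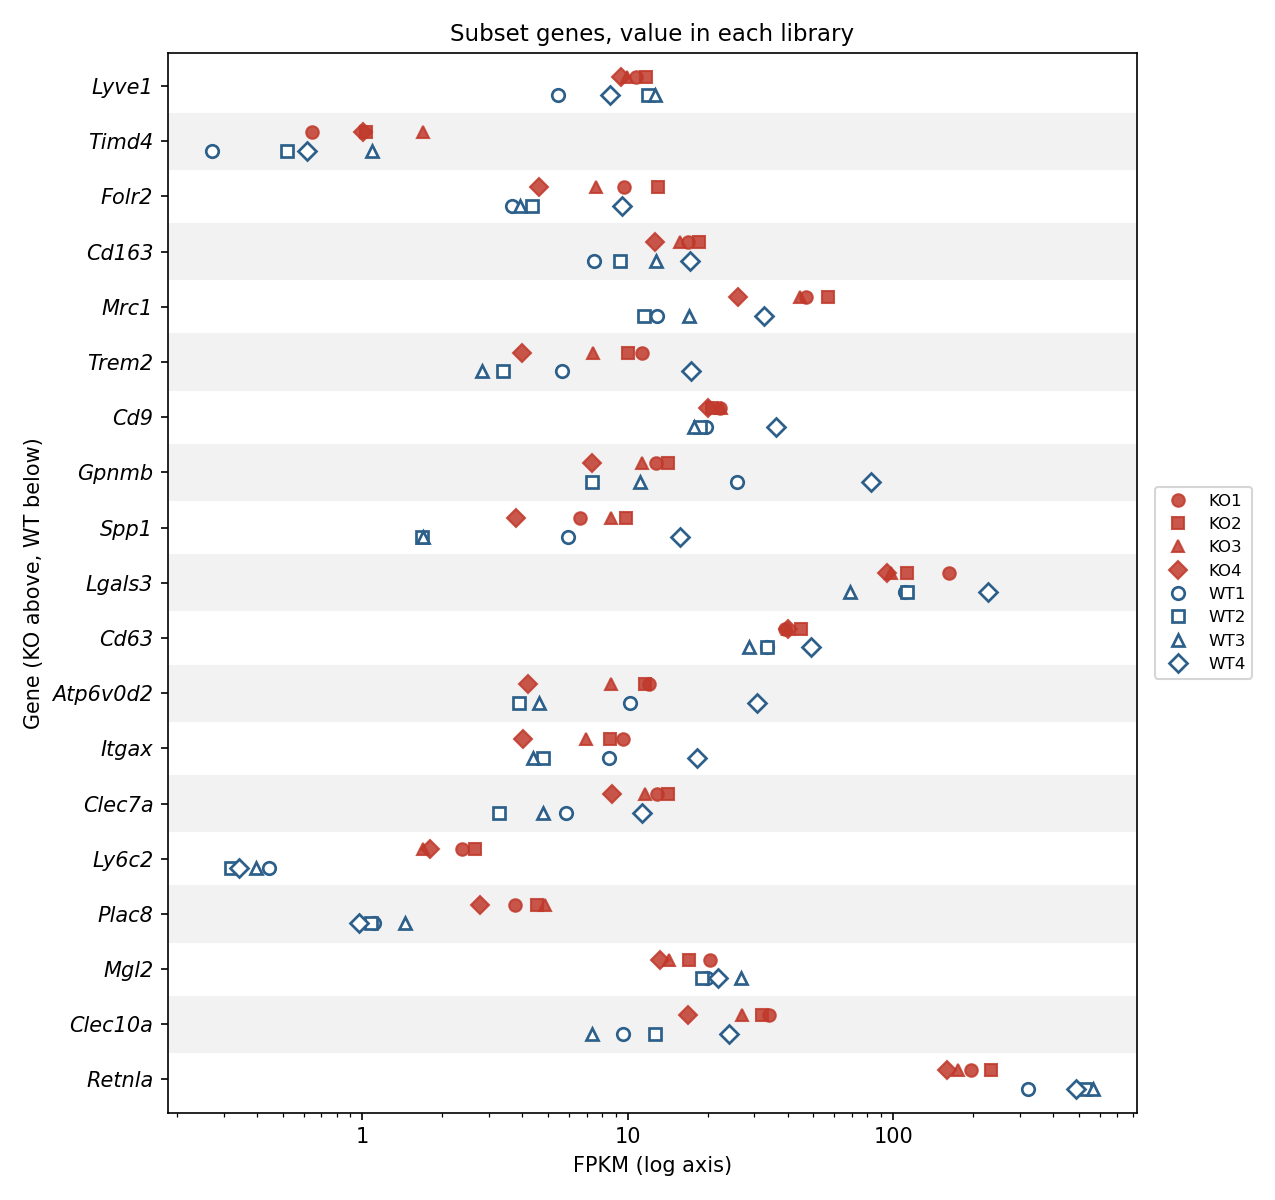
FPKM of the 19 subset genes in each library on a log axis, with KO-labelled libraries (red, filled) above WT libraries (blue, open) in each row. Ly6c2 and Plac8 separate upward and Retnla downward, while in Trem2, Gpnmb, Spp1, Atp6v0d2 and Itgax WT4 (open diamond) lies to the right of every KO-labelled library.

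**Figure D3:**
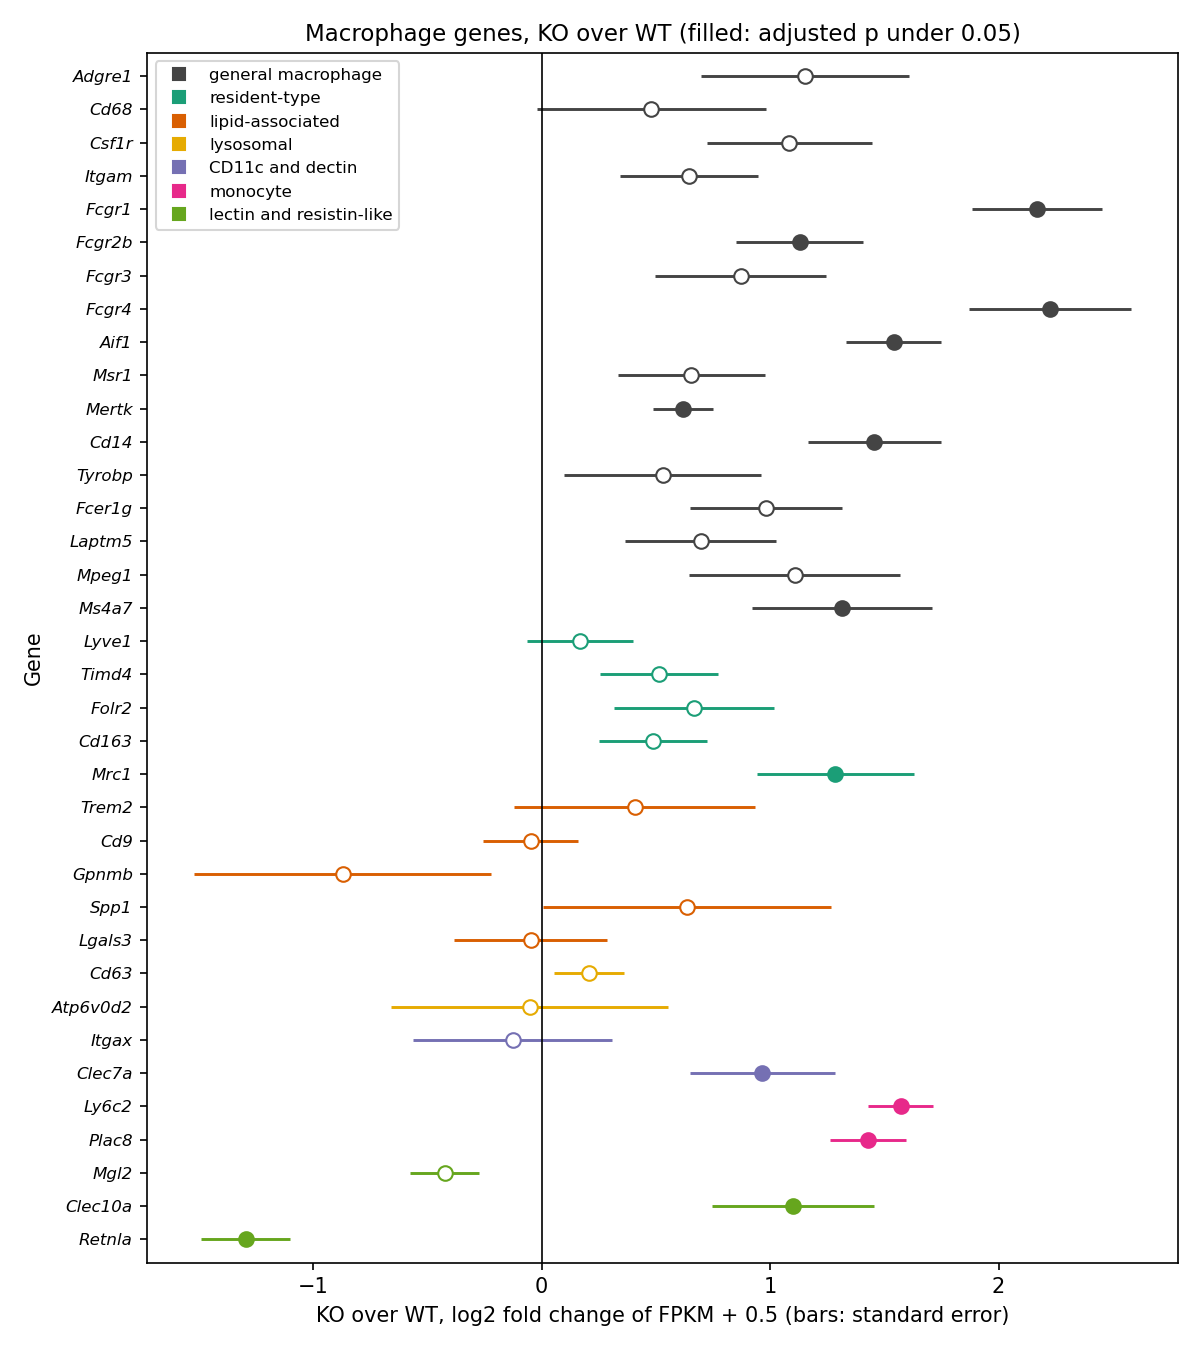
Log2 fold change of FPKM + 0.5, KO-labelled over WT, for the 36 genes, coloured by role, with bars for the standard error and filled points for an adjusted p under 0.05. The 17 general genes lie right of 0, at 0.48 to 2.23, the lipid-associated genes lie between -0.87 and 0.64, and Retnla lies furthest left at -1.29.

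Because the libraries differed in general macrophage level, the 19 subset genes were also tested with the mean log2 level of the 17 general genes as a covariate in the fit over all genes. At a matched general level, Trem2 (-1.34 ± 0.22, adjusted p = 0.00839), Gpnmb (-2.83 ± 0.51, adjusted p = 0.0121), Atp6v0d2 (-2.03 ± 0.30, adjusted p = 0.00636), Itgax (-1.54 ± 0.22, adjusted p = 0.00523) and Retnla (-1.46 ± 0.29, adjusted p = 0.0172) were lower in the KO-labelled group, and Ly6c2 (1.45 ± 0.22, adjusted p = 0.0061) and Plac8 (1.34 ± 0.26, adjusted p = 0.0155) were higher. Beside these 5 lower and 2 higher calls, 7.98% of all genes outside the covariate were called lower and 5.24% higher in the same fit. None of the 5 resident-type genes was called, with Mrc1 at 0.18 ± 0.19, adjusted p = 0.566 and Folr2 at -0.45 ± 0.21, adjusted p = 0.184. Cd9, Lgals3 and Spp1 had values of -0.63, -0.96 and -1.24 with no call (adjusted p = 0.0649, 0.0939 and 0.154). All 7 calls were lost when WT4 was left out (adjusted p = 0.145 to 0.406), with the same direction in each. The log2 fold changes without WT4 were -1.46 for Itgax, -1.76 for Atp6v0d2, -1.10 for Trem2, -1.84 for Gpnmb, -1.68 for Retnla, 0.96 for Ly6c2 and 0.64 for Plac8. WT4 was the WT library whose general level lay within the range of the KO-labelled group. Retnla was also lost without KO4.

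A related comparison can be read from the libraries directly, but it is not the same one. The fit estimated how far each gene follows the general level, whereas division assumes that it follows in full. Where the general level is high, division lowers any gene that does not follow it. The results differ in part. Trem2 and Plac8 were called in the fit and overlap here, while Cd9, Lgals3 and Mgl2 do not overlap here and had no call. Divided by the geometric mean of the general genes in its own library, Itgax was 0.375, 0.330, 0.333 and 0.310 in KO1 to KO4, against 1.08, 0.722, 0.626 and 1.02 in WT1 to WT4. On this relative scale Gpnmb was 0.499 to 0.564 in the KO-labelled libraries and 1.11 to 4.58 in WT, and Atp6v0d2 was 0.324 to 0.469 in the KO-labelled libraries and 0.591 to 1.71 in WT. Trem2 overlapped, at 0.308 to 0.442 in the KO-labelled libraries and 0.402 to 0.965 in WT. Mrc1 overlapped as well, at 1.84 to 2.20 in the KO-labelled libraries and 1.63 to 2.42 in WT. So did Plac8, at 0.148 to 0.234 in the KO-labelled libraries and 0.054 to 0.206 in WT, with WT4 the lowest. In all, 7 of the 19 genes were below every WT library and 1, Ly6c2, above every WT library on this scale, beside 17.9% and 0.716% of all tested genes outside the 17. The 7 were Cd9, Gpnmb, Lgals3, Atp6v0d2, Itgax, Mgl2 and Retnla. Cd9 and Lgals3 are among those also expressed outside macrophages, and Itgax also marks dendritic cells. Which cells of the fat expressed any of the 7 was not tested. Low and high relative levels were found within the 17 general genes as well. These genes make up the divisor, so their relative levels balance in each library by construction, and no conclusion is drawn from them. Cd68, Itgam, Tyrobp, Fcer1g and Laptm5 were below every WT library on this scale, and Fcgr1, Fcgr4 and Aif1 were above.

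**Figure D4:**
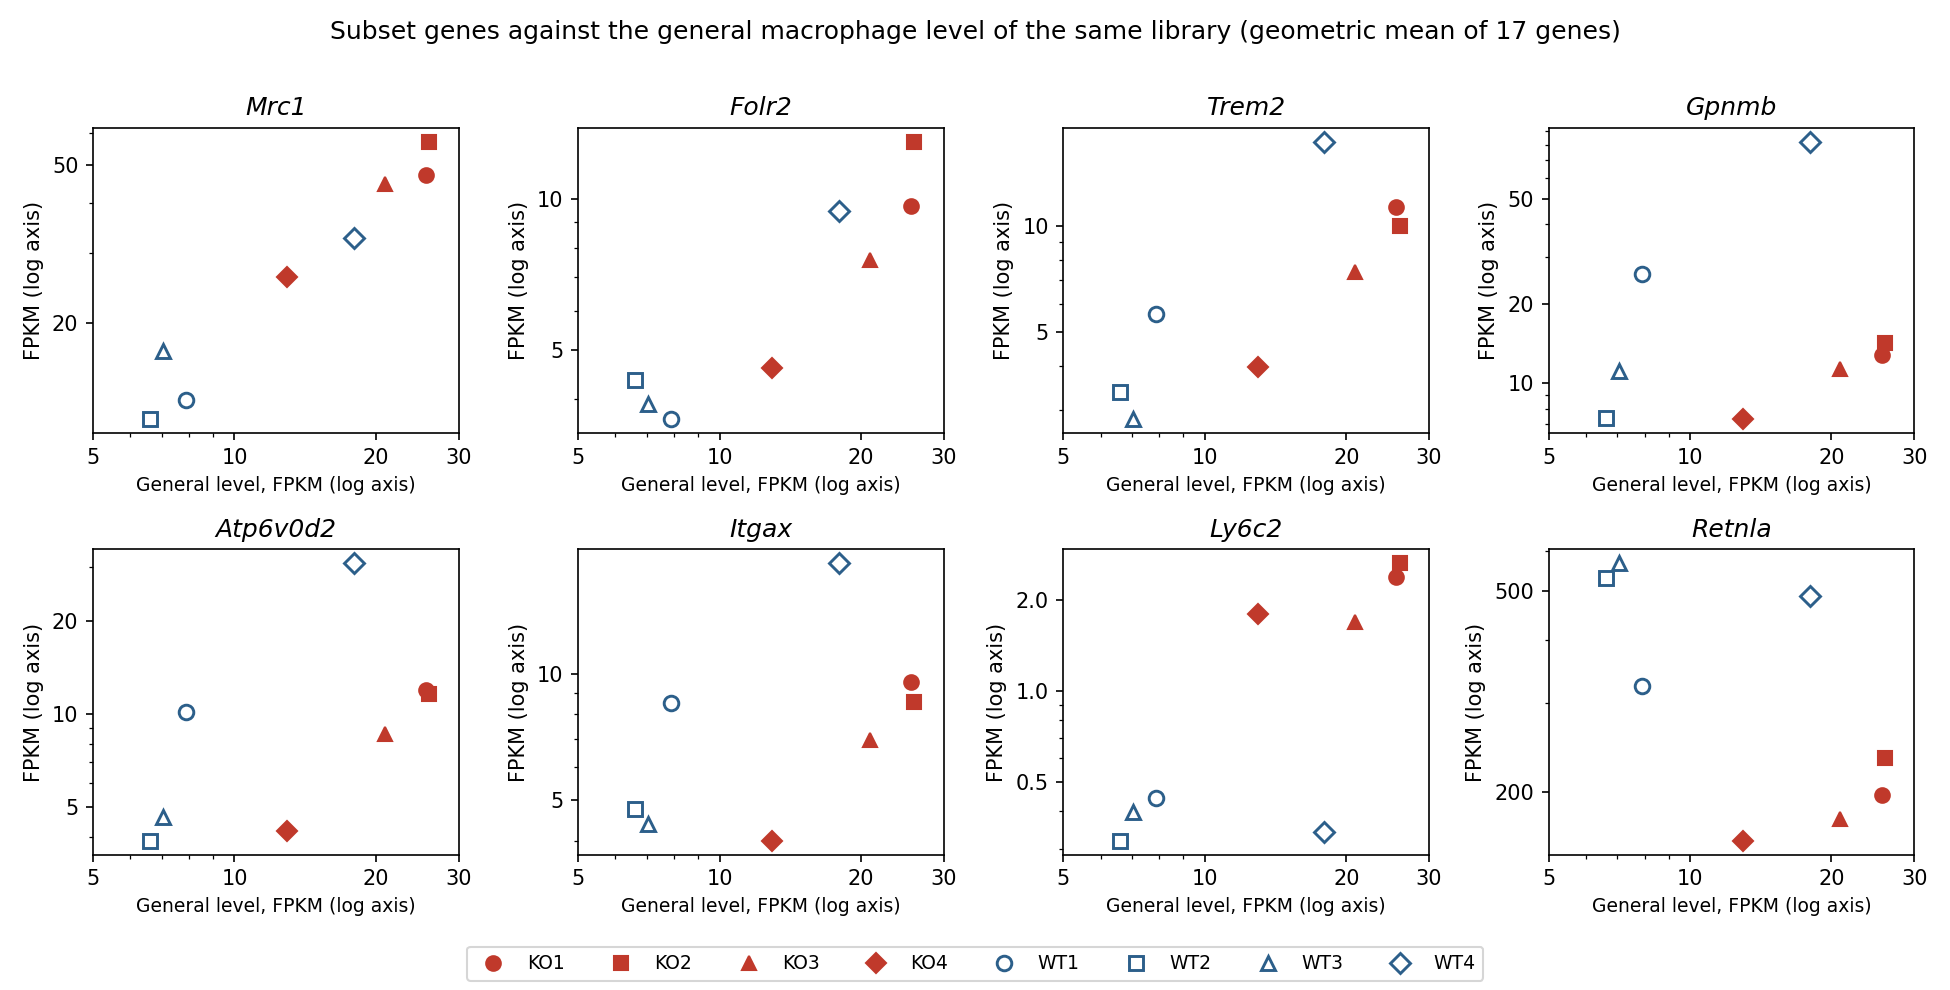
FPKM of 8 subset genes against the geometric mean FPKM of the 17 general genes in the same library, both on log axes, with KO-labelled libraries in red and WT libraries in blue. Mrc1 and Folr2 run along with the general level across both groups, while WT4, at 18.0 FPKM on the x axis, lies above the KO-labelled libraries in Trem2, Gpnmb, Atp6v0d2 and Itgax and below them in Ly6c2.

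Other genes of macrophage supply and lipid handling were read as lists. In the growth and recruitment list, 8 of 16 tested genes rose and none fell at adjusted p under 0.05, with a median log2 fold change of 0.68. The shares over all tested genes, against which this and the next lists are read, were 11.7% higher and 18.6% lower. In 2 genes of the list, the receptor subunit gene Csf2rb (-0.36 ± 0.13, adjusted p = 0.0577) and Il34, a second ligand of the CSF1 receptor (-0.23 ± 0.12, adjusted p = 0.196), every KO-labelled library was below every WT library without a call. Over all tested genes, the groups did not overlap in 19.1% with KO-labelled libraries below and in 12.1% with KO-labelled libraries above. Ms4a4c, a gene of the same tetraspan family as Ms4a7, measured 3.86, 5.59, 3.84 and 4.84 FPKM in KO1 to KO4, against 0.246, 0.524, 0.623 and 1.05 FPKM in WT1 to WT4 (2.22 ± 0.22, adjusted p = 0.000253). The monocyte chemokine gene Ccl7 (1.08 ± 0.14, adjusted p = 0.000774), the chemokine receptor gene Cx3cr1 (1.18 ± 0.25, adjusted p = 0.00958) and the myeloid transcription factor gene Irf8 (0.76 ± 0.17, adjusted p = 0.0119) were also higher, with no overlap between the groups. Ccr2 and Ccl2 are given for their role, having been chosen after their values were seen. Ccr2, the receptor that brings monocytes out of the marrow, was higher, at 18.0, 20.8, 16.7 and 11.3 FPKM in KO1 to KO4, against 6.66, 4.77, 7.58 and 12.2 FPKM in WT1 to WT4 (1.09 ± 0.27, adjusted p = 0.0176), and its ligand gene Ccl2 was not called (0.29 ± 0.24, adjusted p = 0.39). Among the complement C1q genes, which tissue macrophages express, C1qb (1.15 ± 0.33, adjusted p = 0.031) and C1qc (1.08 ± 0.34, adjusted p = 0.0445) were higher and C1qa was not called (0.91 ± 0.37, adjusted p = 0.0968).

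In the list of lipid handling and lysosomal genes, 7 of 26 tested genes fell, with a median log2 fold change of -0.18. The called falls with the smallest adjusted p were those of Fabp5, a fatty acid binding protein (-0.88 ± 0.13, adjusted p = 0.00138), Npc2, which moves cholesterol out of lysosomes (-1.24 ± 0.18, adjusted p = 0.00147), the protease gene Ctsd (-0.98 ± 0.15, adjusted p = 0.00204) and the acid phosphatase gene Acp5 (-1.07 ± 0.19, adjusted p = 0.00416). Npc2 measured 75.0, 65.1, 50.6 and 51.9 FPKM in KO1 to KO4, against 172, 138, 108 and 159.5 FPKM in WT1 to WT4, and WT4 was not apart from WT1 and WT2 in it. Several of these genes are expressed by adipocytes too. A gene shared with the adipocyte list is counted among the falls of both lists. Of the adipocyte genes, 9 of 9 fell in the same fat. Their summed level was 1653 to 2216 FPKM in the KO-labelled libraries and 4096 to 5500.5 FPKM in WT, and their part in these falls was not tested. Of the partners of DAP12, Clec5a (0.76 ± 0.20, adjusted p = 0.0211) and Sirpb1a (1.06 ± 0.27, adjusted p = 0.0174) rose among 6 tested.

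Markers of other cells that share these genes were examined. Of the neutrophil list, 4 of 9 genes in the table passed the filter, and S100a8 (0.81 ± 0.22, adjusted p = 0.0236) and Csf3r (1.05 ± 0.28, adjusted p = 0.0223) rose. The other two tested, S100a9, whose protein pairs with that of S100a8, and Mmp9, were not called and had negative values (-0.17 ± 0.25, adjusted p = 0.642 and -0.08 ± 0.21, adjusted p = 0.805). The list, of which S100a8 made up 8.69 to 18.3 FPKM in the KO-labelled libraries and 5.22 to 7.46 FPKM in WT, summed to 14.4 to 21.5 FPKM in the KO-labelled libraries and 7.88 to 10.9 FPKM in WT. Those below the filter were not tested and were named after their values were seen. Means in the KO-labelled group were 0.359 FPKM for Camp, 0.12 for Ngp, 0.0456 for Cxcr2, 0.186 for Mmp8 and 0.0174 for Retnlg. In WT they were 0.0405, 0.025, 0, 0.0123 and 0.0337 FPKM. In Mmp8 every KO-labelled library was above every WT library, and in the rest the groups overlapped. No share of such separations was computed for genes below the filter. Of the dendritic cell list, 3 of 7 tested genes were called higher and none lower. The list summed to 11.5 to 14.7 FPKM in the KO-labelled libraries and 10.3 to 14.5 FPKM in WT. Endothelial genes fell in 8 of 8, with a summed 140 to 162 FPKM in the KO-labelled libraries against 206 to 284 FPKM in WT, with WT4 the lowest of WT. The collagen gene Col1a1 was also highest in WT4, at 194 FPKM against 72.6 to 89.6 FPKM in WT1 to WT3. Liver transcripts summed to 6.97 to 19.0 FPKM in the KO-labelled libraries and 18.3 to 465 FPKM in WT, with 465 FPKM in WT2 and 128 FPKM in WT1. Without those libraries, 6 of the 36 macrophage genes were called higher and 1 lower, beside 5.06% and 7.14% of all tested genes. The 6 were Fcgr1, Fcgr4, Aif1, Mertk, Ly6c2 and Plac8, and the 1 was Retnla, while Cd14 lost its call. The part of these other cells in the macrophage results was not tested.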

How the data were processed

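Whole epididymal fat of 8 mice was sequenced as poly(A) RNA, 4 libraries per group, each taken as 1 mouse. P-values measure the spread between these samples. The authors deposited FPKM per gene. Per the submitters' processing notes HISAT2 2.0.5, featureCounts and the mouse build mm10 were used; the annotation release and the strand setting are not given in the sources used here, so reads of overlapping or antisense genes cannot be told apart. Exons of Csf1r, Folr2, Fcgr2b, Cd9, Itgam and Spp1 overlap those of another gene in the annotation.

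Gene IDs were matched to GENCODE M21 (28255 of 28295, coordinates in mm10). Reads were recovered from the FPKM steps: 97.9% of the low values checked were whole within 0.02 reads. The 36 genes rest on 15 to 13768 reads per library. Samples were grouped by the labels. Genes with a mean of at least 0.5 FPKM (14400) were tested on log2(FPKM + 0.5), which understates the change of low genes, with limma 3.58.1 (R 4.3.3, trend, robust, no block) and Benjamini-Hochberg adjustment at 0.05. A second fit added the mean log2 level of the 17 general genes. Tables and figures were made with Python 3.11.15, pandas 2.3.3, numpy 2.4.6, scipy 1.17.1 and matplotlib 3.10.9. On simulated data for 14400 genes, 73% of changes of 1 on the log2 scale and 27% of changes of 0.5 were recovered. Of the calls made there, 6.54% were false. The simulation changed 100 genes of each size and drew the noise of each gene independently. In the data more genes were called and libraries shifted many genes together, so these rates may not hold for them.

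The 36 genes and all lists were chosen with earlier results of these data known. Besides the 36 genes and Cul3, up to 4 called genes of each list with the smallest adjusted p were to be named, or the 2 most abundant where none was called. In the lipid handling and lysosomal list, 1 gene is not reported here. Alternatives were pseudocounts, filters, 3 rescalings, limma without trend, a replicate block, omitted libraries, and voom on recovered reads. Same-numbered libraries did not deviate together (correlations of -0.06, -0.13, 0.17 and -0.32), so the numbers were not taken as pairs.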

Additional observations from a re-analysis of the deposited data

Results flagged for a closer look

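A library stood far from the other 3 of its group in 11 of 72 comparisons, which covered 36 genes in each group. Chance gives about 1 in 20 for a single comparison. The genes were measured in the same libraries and are not independent, so the count cannot be judged against that rate. In 10 of the 11 the library was WT4, above the other WT libraries. The macrophage surface and lysosomal genes Adgre1 (46.9 FPKM), Csf1r (58.2 FPKM), Cd68 (164.8 FPKM), Itgam (5.48 FPKM) and Laptm5 (53.4 FPKM) were among them. So were the Fc receptor genes Fcgr1 (4.04 FPKM) and Fcgr3 (38.4 FPKM), and Cd14 (16.1 FPKM), Folr2 (9.47 FPKM) and Cd9 (36.3 FPKM). In the KO-labelled group the 1 such value was Aif1 in KO4, at 4.93 FPKM, below KO1 to KO3 and above every WT library.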

How the results depend on the processing

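Retnla, Fcgr1, Fcgr4, Aif1, Mertk, Ly6c2 and Plac8 kept their direction and call under every alternative to the fit by group alone. Where results changed, the cause was not tested. Over all genes, 1689 called higher became 4226 scaled to a sum of 1000000, 4403 with voom on recovered reads, 1113 with the replicate block, 729 without WT1 and WT2, and 1100 to 1938 leaving out 1 library. The 2683 called lower became 1190, 1262 and 1029 with sum scaling, voom, and without WT1 and WT2, and 1862 to 2794 leaving out 1 library. Median log2 fold change moved to 0.24 with sum scaling and 0.22 with voom.

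Of the 36 genes, 12 called higher became 6 without WT1 and WT2 and 7 to 24 leaving out 1 library, and 1 called lower became 1 to 2. General genes called higher (7) became 12 with sum scaling, 4 without WT1 and WT2, and 5 to 16 leaving out 1 library. Resident-type genes called higher (1) became 2 with sum scaling or voom, 0 without WT1 and WT2 or at a matched general level, and 0 to 3 leaving out 1 library. At a matched general level 2 lipid-associated genes were called lower, against 0. The 4 monocyte, CD11c, lectin and lysosomal genes called higher became 2 with no filter, without trend, with the replicate block, without WT1 and WT2 or at a matched general level, and 2 to 5 leaving out 1 library; the 1 called lower became 3 at a matched general level and 1 to 2 leaving out 1 library. With the replicate block, 8 of the 36 genes were called higher: Fcgr2b, Ms4a7, Mrc1, Clec7a and Clec10a lost their calls (adjusted p = 0.0723 to 0.117) and Timd4 gained one (adjusted p = 0.0417), so the resident-type count of 1 was then of another gene.

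Signs turned without WT1 and WT2 for Cd68 (-0.018) and Lyve1 (-0.0027), and at a matched general level for Folr2 (-0.45), Cd163 (-0.13), Trem2 (-1.34), Spp1 (-1.24), Cd63 (-0.18) and Clec7a (-0.035). With sum scaling, quantile normalization and voom they turned for Cd9 (0.23, 0.14 and 0.20), Lgals3 (0.23, 0.19 and 0.20) and Atp6v0d2 (0.23, 0.032 and 0.22), and with sum scaling and voom for Itgax (0.14 and 0.12). Leaving out 1 library gave Lyve1 -0.065 to 0.32, Cd9 -0.15 to 0.19, Lgals3 -0.31 to 0.26, Atp6v0d2 -0.41 to 0.53 and Itgax -0.37 to 0.27. At a matched general level it gave Cd163 -0.21 to 0.12, Cd9 -0.95 to 0.035, Cd63 -0.41 to 0.25, Clec7a -0.26 to 0.23 (0.0023 without WT1) and Clec10a -0.013 to 0.16 (-0.012 without WT1). Timd4 was not tested at a mean of at least 1 FPKM, and its depth of 15 to 89 reads limits it.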

Other observations

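The 3 tested genes of mast cells rose. Mcpt4, a mast cell protease, measured 8.46, 7.47, 9.20 and 6.71 FPKM in KO1 to KO4, against 0.673, 1.36, 0.866 and 1.14 FPKM in WT1 to WT4 (2.50 ± 0.16, adjusted p = 3.44e-05 by limma). The chymase gene Cma1 (2.24 ± 0.27, adjusted p = 0.000646) and the carboxypeptidase gene Cpa3 (1.92 ± 0.19, adjusted p = 0.000231) rose too. In each of the 3 every KO-labelled library was above every WT library, as in 12.1% of all tested genes. WT4 was the highest of WT in Cpa3 and Cma1 and remained below the KO-labelled libraries.

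Of the dendritic cell genes, Ccr7, the receptor that guides these cells to lymph nodes, measured 1.96, 1.71, 1.92 and 1.61 FPKM in KO1 to KO4, against 0.456, 0.802, 0.684 and 0.823 FPKM in WT1 to WT4 (0.96 ± 0.13, adjusted p = 0.00108). Xcr1 (0.67 ± 0.18, adjusted p = 0.0244) and Clec9a (0.40 ± 0.13, adjusted p = 0.0452), which mark conventional dendritic cells that cross-present antigen, were higher. The other 4 tested genes of that list were not called. Cd209a (-0.73 ± 0.25, adjusted p = 0.0549) and Zbtb46 (-0.20 ± 0.12, adjusted p = 0.222) had negative values. Flt3 (0.47 ± 0.22, adjusted p = 0.141) and Batf3 (0.45 ± 0.27, adjusted p = 0.236) had positive values. The B cell gene Cd79b was higher at 1.16 to 2.95 FPKM in the KO-labelled libraries and 0.701 to 1.25 FPKM in WT (0.81 ± 0.22, adjusted p = 0.0241). The T and NK cell list summed to 5.48 to 8.06 FPKM in the KO-labelled libraries and 3.88 to 10.9 FPKM in WT. Its 1 tested gene, the T cell receptor gene Trac, was not called and had the lower mean in the KO-labelled group, at 3.30, 3.14, 2.12 and 2.25 FPKM in KO1 to KO4, against 9.90, 3.21, 3.22 and 8.53 FPKM in WT1 to WT4 (-0.93 ± 0.36, adjusted p = 0.0826). The other 7 were below the filter and not tested. Of these, Cd3e, Cd3g, Cd4 and Cd8a had every KO-labelled library above every WT library, and in Cd3d, Klrb1c and Ncr1 the groups overlapped. The values of Cd3e, Cd3g, Cd4 and Cd8a were low, at most 1.04 FPKM (Cd4 in KO1). Among genes that passed the filter, 12.1% had every KO-labelled library above every WT library. No such share was computed for genes below the filter.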
